A study of Mus musculus with 13 samples.

Results

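Bone morphogenetic proteins (BMPs) and the genes that answer to them were followed through the differentiation of mouse embryonic stem (ES) cells towards blood. The set held 10 genes, chosen by name from the 45250 genes of the deposited expression table: the ligands Bmp2, Bmp4, Bmp5 and Bmp7, the Id genes Id1, Id2 and Id3, the inhibitory Smads Smad6 and Smad7, and the decoy receptor Bambi. All 10 were found and all 10 were among the 13802 genes tested. Each had an FPKM of at least 1 in 9 to 13 of the 13 libraries and in at least 1 library of each of the 5 groups, so that none entered the test through a single group.

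BMPs are secreted dimers of the TGF-beta superfamily. They bind pairs of type I and type II serine/threonine kinase receptors, which phosphorylate SMAD1, SMAD5 and SMAD9; these join SMAD4, enter the nucleus and activate target genes. The Id genes are the best known targets and encode helix-loop-helix proteins without a DNA-binding domain, which sequester the E-protein partners of factors such as TAL1. Smad6, Smad7 and Bambi are targets that act back on the pathway as inhibitors. BMP4 induces ventral and posterior mesoderm, from which haemangioblasts, the common precursors of blood and endothelium, arise, and BMP signals later act in the vessel wall where haemogenic endothelium forms.

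RNAseq libraries came from cells of WT (the ES line CCB), Lmo2-/- and Tal1-/- genotype, each represented by a single ES line. LMO2 is the adaptor of a transcription factor complex in which TAL1 binds DNA. Flk-1+ cells, which are enriched for haemangioblasts, were isolated from embryoid bodies with magnetic beads and gave 3 libraries for each of the 3 genotypes. Haemogenic endothelium 1 (HE1), a Tie2+, Kit+, CD41- population sorted by flow cytometry after Flk-1+ cells had been cultured in blast medium with VEGF and IL-6, gave 2 libraries each of WT and Lmo2-/-; Tal1-/- HE1 was not among the groups. The blast medium also contained serum and medium conditioned by D4T cells, whose content of BMPs is not given in the sources used here. The ES lines had been kept on embryonic fibroblasts and were passaged without them before differentiation. Libraries of a genotype replicate the differentiation and not the line, so genotype and line cannot be told apart, and p-values measure the spread between these libraries. In these bulk samples fewer cells of a type and less RNA per cell cannot be told apart either.

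Levels are given in FPKM (fragments per kilobase of transcript, scaled by library size), which can be compared between genes because of the division by length. No fragment counts were used. The study states a minimum number of reads for every library, but the depth of each library is not known here. Lmo2-/- HE1 replicate 1 had 9694 genes above 0, against 11861 to 15641 in the other 12 libraries, and of 4079 genes with a median FPKM above 10 this library had 191 at 0 against 1 to 59 in the others. Results that rest on this library are given with and without it. Lmo2 itself ran from 21.6 to 30.8 FPKM in WT Flk-1+ and from 2.17 to 6.48 in Lmo2-/- Flk-1+ libraries, and Tal1 from 22.0 to 37.4 in WT and from 2.74 to 3.41 in Tal1-/-. In HE1 Lmo2 was at 4.30 and 20.6 FPKM under the WT label and at 6.42 and 0 under the Lmo2-/- label, so the targeted gene overlapped between the HE1 labels, and directions given for HE1 rest on the labels. Kdr, which encodes Flk-1, was between 68.7 and 275 FPKM in all libraries. Tek, which encodes Tie2, was at most 2.27 FPKM in Flk-1+ cells and at least 121 in HE1, and Ptprc, the pan-leukocyte gene CD45, was at 0 throughout. Itga2b, which encodes CD41, was not at 0 in HE1 although HE1 was sorted as CD41-. It was at most 5.54 FPKM in Flk-1+ cells, at 15.4 and 10.4 in WT HE1 and at 19.8 and 0 in Lmo2-/- HE1.

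Promoter sequence from RefSeq (GRCm38.p6) was used for 5 of the 10 members. The promoters of the other members, and other starts of these 5 genes, were not searched. Windows of 250 bases before and 50 bases after the annotated start were searched on both strands for 5 words: GTCTG, the SMAD box, and GTCTAGAC, its palindromic form; GGCGCC, a GC-rich SMAD element of BMP targets; and CAGATG and AGATAA, the E-box and GATA letters of TAL1 and LMO2 sites. None of these words contains another. The 250 bases before the start of Bmp4 and Bmp5 are printed because these ligands differed between Lmo2-/- and WT HE1, and stretches of Id2, Id3 and Smad6 because they hold one of the SMAD words. Capitals mark the matches.
Bmp4 (chr14:46390670-46390919, minus strand): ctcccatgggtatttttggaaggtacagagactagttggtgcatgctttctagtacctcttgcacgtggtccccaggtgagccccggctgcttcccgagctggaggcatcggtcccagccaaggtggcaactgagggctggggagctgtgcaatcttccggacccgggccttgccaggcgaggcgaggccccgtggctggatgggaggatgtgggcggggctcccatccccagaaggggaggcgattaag
Bmp5 (chr9:75775115-75775364, plus strand): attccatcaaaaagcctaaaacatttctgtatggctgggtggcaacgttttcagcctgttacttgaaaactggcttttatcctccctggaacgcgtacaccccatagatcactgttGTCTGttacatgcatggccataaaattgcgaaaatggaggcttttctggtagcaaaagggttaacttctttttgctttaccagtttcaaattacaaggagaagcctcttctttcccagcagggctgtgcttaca
Id2 (chr12:25096283-25096342, minus strand): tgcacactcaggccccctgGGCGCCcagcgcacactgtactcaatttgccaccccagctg
Id3 (chr4:136143632-136143791, plus strand): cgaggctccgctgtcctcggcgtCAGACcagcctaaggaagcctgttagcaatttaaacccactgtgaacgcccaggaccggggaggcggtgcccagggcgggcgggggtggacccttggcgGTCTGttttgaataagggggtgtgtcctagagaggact
Smad6 (chr9:64022056-64022159, minus strand): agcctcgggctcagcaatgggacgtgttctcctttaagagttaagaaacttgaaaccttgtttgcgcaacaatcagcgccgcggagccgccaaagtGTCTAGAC
Counting backwards from the base before the start as -1, the Bmp5 window held GTCTG from -134 to -130, the Id2 window GGCGCC from -231 to -226, and the Id3 window the SMAD box on the minus strand from -167 to -163 and on the plus strand from -68 to -64. The palindrome in Smad6 lay across the start, from -4 to 4. The starts are those of RefSeq. In GENCODE M21 the Id2 and Id3 genes begin further upstream, so both printed stretches lie inside the annotated genes. These span 25093799 to 25097140 on chromosome 12 (minus strand) for Id2 and 136143497 to 136145755 on chromosome 4 (plus strand) for Id3. Of all 32851 promoter windows of this length, 49.6% held GTCTG, 11.9% GGCGCC and 0.213% GTCTAGAC. Neither CAGATG, held by 17.2% of all windows, nor AGATAA, held by 11.2%, was found in any of the 5 windows. These are matches of letters in a short window and no binding was measured here.

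By the mean of its libraries Bmp4 was the highest of the 10 genes in Flk-1+ cells of every genotype, followed by Smad7. Mean FPKM of Bmp4 was 50.9 ± 20.04 (SD, n = 3) in WT, 56.4 ± 19.5 in Lmo2-/- and 30.2 ± 5.35 in Tal1-/-, and that of Smad7 was 33.7 ± 8.23, 40.5 ± 10.1 and 23.0 ± 13.3. The libraries of these neighbours in the order overlapped in each of the 3 genotypes. In the condition FPKM that the authors deposited, the order of these 2 genes was reversed. Smad7 was at 43.6, 48.5 and 33.6 and Bmp4 at 38.6, 33.7 and 22.5 in WT, Lmo2-/- and Tal1-/-. In WT Flk-1+ cells Bmp2 (18.1 ± 2.80) and Smad6 (17.3 ± 9.55) came next, Id1, Id3, Bmp7 and Bmp5 lay between 5.30 and 8.25, and Bambi (3.75 ± 2.04) and Id2 (0.717 ± 0.471) were lowest. In WT HE1 the order had changed: Bmp2 (33.0 ± 2.25, n = 2) and Smad7 (33.0 ± 7.63) led, Smad6 was at 21.6 ± 4.48 and Bmp4 at 10.6 ± 1.66, while Bmp5 and Bmp7 were near 0. Bmp4 was again first in Lmo2-/- HE1, with a mean of 134 that came from libraries at 32.9 and 235 FPKM.

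**Figure D1:**
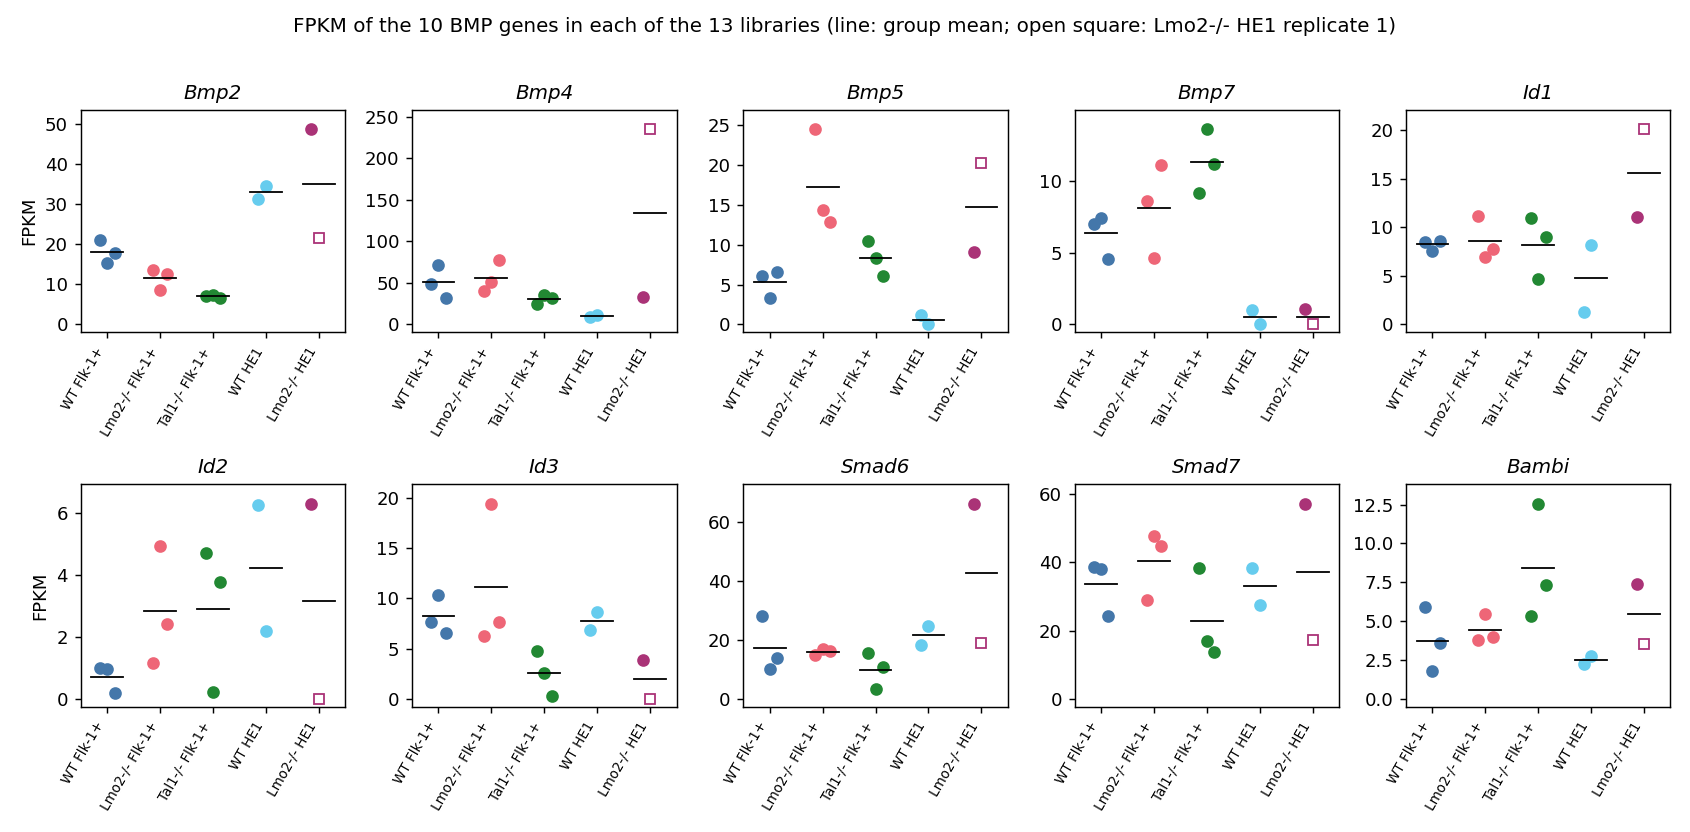
FPKM (y axis, a scale for each gene) of the 10 genes in the 13 libraries, by group (x axis); points are libraries, lines are group means and the open square is Lmo2-/- HE1 replicate 1. Bmp4 lay between 9.43 and 11.8 in the WT HE1 libraries, under all other libraries, and reached 235 in Lmo2-/- HE1 replicate 1.

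The first comparison asked what the loss of Lmo2 changed in HE1. Bmp4 and Bmp5 were higher in Lmo2-/- HE1, and no other member passed the test. To be called, a gene needed a limma adjusted p below 0.05 and a group mean above 10 FPKM on either side of the comparison. The spread behind this p was estimated from the Flk-1+ and HE1 libraries together. In this comparison 3.01% of all tested genes were called, 2.15% as higher, against 2 of 10 members, both higher. Over the members the log2 fold changes had a median of 0.37, and over all tested genes of 0.15.

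Bmp4 (XLOC_012025; chromosome 14 of GRCm38, 46383520 to 46390669, minus strand, in GENCODE M21) had 9.43 and 11.8 FPKM in WT HE1 and 32.9 and 235 in Lmo2-/- HE1. Both Lmo2-/- libraries were above both WT libraries, but they were far apart from each other. The log2 fold change was 2.95 (SE 0.69, limma, adjusted p = 0.030), and the exact permutation test gave p = 0.333, its smallest value with 2 libraries on each side. Without Lmo2-/- HE1 replicate 1 it was 1.56 (adjusted p = 0.18), where the lone remaining library is assumed to vary like the other groups. The call also ended without WT HE1 replicate 0 (adjusted p = 0.16) or replicate 1 (adjusted p = 0.10), with array weights (adjusted p = 0.15) and in a fit of the HE1 libraries alone (adjusted p = 0.52). The locus in the deposited table reached 4106 bases past the annotated gene, into a stretch where the predicted gene Gm15217 and the antisense gene Gm15222 lie on the opposite strand, and whether counting used strand is not stated in the sources used here.

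Bmp5 (XLOC_039639; chromosome 9, 75775364 to 75900310, plus strand), a ligand closely related to BMP6 and BMP7, was at 1.16 and 0 FPKM in WT HE1 and at 9.04 and 20.3 in Lmo2-/- HE1. Again the libraries of the genotypes did not overlap. The log2 fold change was 3.31 (SE 0.56, limma, adjusted p = 0.0068). Without Lmo2-/- HE1 replicate 1 it was 2.77 (adjusted p = 0.049), and the remaining library was below the 10 FPKM needed for a call. Without WT HE1 replicate 1, the library at 0, it was 2.76 (adjusted p = 0.057), and the call also ended with array weights (adjusted p = 0.10) and in a fit of the HE1 libraries alone (adjusted p = 0.43). The locus in the table was 236040 bases longer than the annotated gene and overlapped Hmgcll1, a protein-coding gene on the same strand, so fragments of the neighbouring gene cannot be told apart from those of Bmp5.

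Bmp2 and Bmp7 did not pass the test. Bmp2 was at 31.4 and 34.6 FPKM in WT HE1 and at 48.7 and 21.6 in Lmo2-/- HE1, a log2 fold change of -0.02 (SE 0.42, limma, adjusted p = 1). Bmp7 was at 1.01 and 0 in WT and at 1.07 and 0 in Lmo2-/-. Summed over the 4 ligands, FPKM was 43.0 and 46.3 in WT HE1 and 91.7 and 277 in Lmo2-/- HE1. Bmp4 made up 21.9% and 25.4% of this sum in WT, against 35.9% and 84.9% in Lmo2-/-. The sum leaves out other ligands. Of these Bmp6 was at 38.8 and 26.9 in WT and 10.8 and 1.13 in Lmo2-/-, and Gdf6 at 0.316 and 1.18 against 19.0 and 11.6.

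No Id gene, inhibitory Smad or Bambi passed the test between the genotypes in HE1. Id1, the Id gene most often used as a readout of BMP signalling, was at 1.32 and 8.16 FPKM in WT HE1 and at 11.1 and 20.1 in Lmo2-/- HE1 (log2 fold change 1.79, SE 0.61, limma, adjusted p = 0.12). Id3 pointed the other way, with 6.83 and 8.67 in WT and 3.84 and 0 in Lmo2-/- (log2 fold change -1.98, SE 0.81, limma, adjusted p = 0.19). The log2 fold change of Id1 was 2.78 without WT HE1 replicate 1 and 0.80 without WT HE1 replicate 0. It was 2.19 without Lmo2-/- HE1 replicate 0 and 1.39 without Lmo2-/- HE1 replicate 1. That of Id3 was -3.12 without Lmo2-/- HE1 replicate 0 and -0.84 without Lmo2-/- HE1 replicate 1. The libraries did not overlap in either gene; over all tested genes the libraries of these groups did not overlap in 39.7%. Id2 was at 6.25 and 2.18 in WT and at 6.29 and 0 in Lmo2-/-, so that Lmo2-/- HE1 replicate 1 was listed at 0 for Id2, Id3 and Bmp7 while it had the highest value of all libraries for Bmp4 and Id1. Summed over the 3 Id genes, FPKM was 14.4 and 19.0 in WT HE1 and 21.2 and 20.1 in Lmo2-/- HE1. Among the inhibitors, Smad6 was at 18.4 and 24.7 FPKM in WT and at 66.2 and 18.9 in Lmo2-/-, Smad7 at 38.4 and 27.6 against 57.3 and 17.1, and Bambi at 2.26 and 2.77 against 7.40 and 3.51. The Lmo2-/- libraries differed from each other by more than the genotypes did in Smad6 and Smad7, and no inhibitor passed the test (adjusted p from 0.44 to 1, limma).

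Some cell type markers moved with Bmp4 and Bmp5 in these libraries. Summed FPKM of the 5 mesenchyme or feeder fibroblast markers was 29.2 to 35.7 in WT HE1 and 174 to 755 in Lmo2-/- HE1. Of these 5, Col1a1, Col1a2, Col3a1 and Postn were above 0 in Lmo2-/- HE1, and Thy1 was at 0 in all HE1 libraries. Postn, which encodes the matrix protein periostin, was at 19.97 and 12.4 in WT and at 99.7 and 372 in Lmo2-/-, and Col1a1 at 6.64 and 5.23 against 29.6 and 259. The 5 smooth muscle markers summed to 184 to 219 in WT and 330 to 840 in Lmo2-/-. Acta2 was at 165 and 114 against 263 and 816, while Tagln was at 50.5 and 53.7 against 59.0 and 24.1. Myl9 was at 3.18 and 15.5 against 6.66 and 0, Cnn1 at most 0.853 and Myh11 at most 0.617. The higher sum came from Acta2 and not from the list as a whole. The 6 endothelial markers summed to 676 to 699 and 516 to 594. For Bmp4, Col1a1, Postn and Acta2 the highest value lay in Lmo2-/- HE1 replicate 1. Pluripotency markers were at 0 in all HE1 libraries. The part of these markers in the ligand values was not tested.

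**Figure D2:**
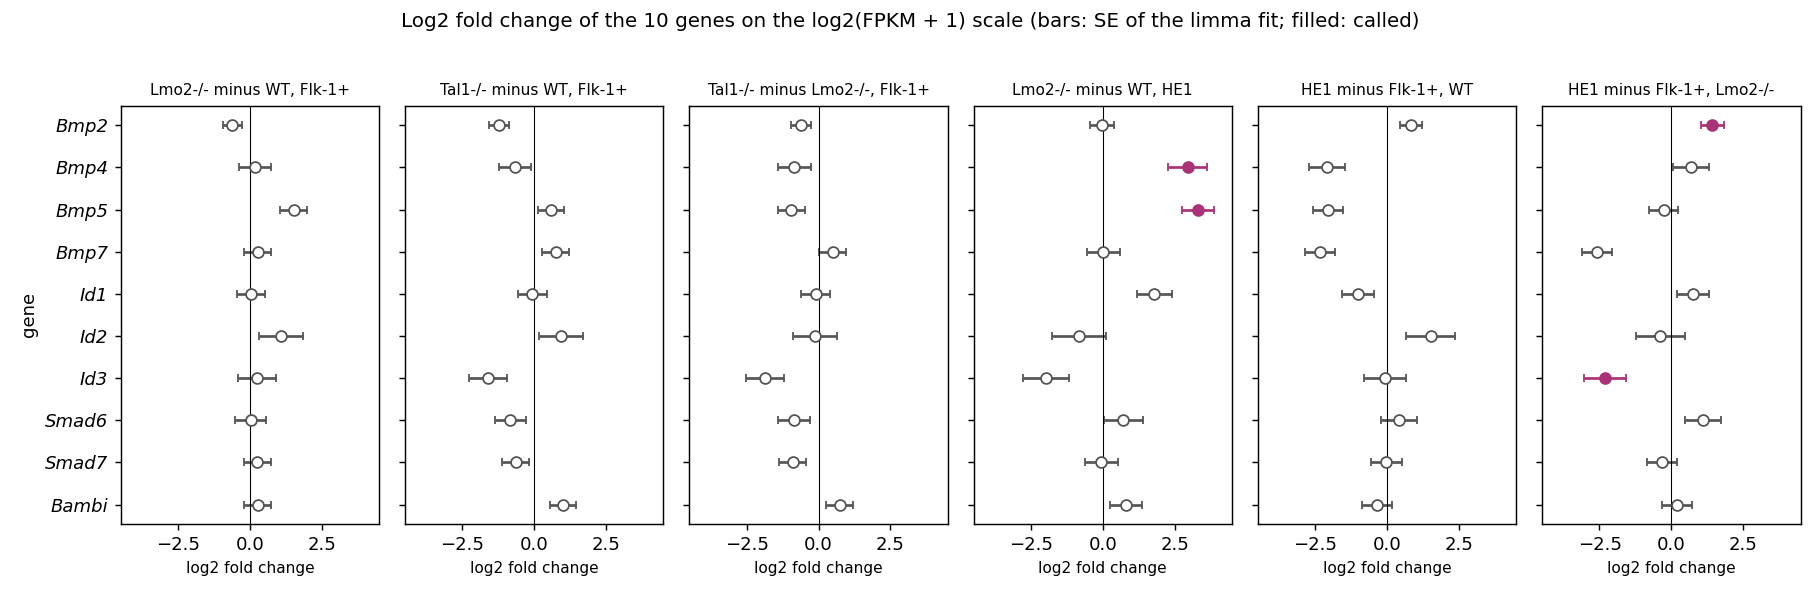
Log2 fold change (x axis, on the log2(FPKM + 1) scale) of the 10 genes (y axis) in the 6 comparisons; bars are standard errors of the limma fit and filled points are called genes. Bmp4 (2.95) and Bmp5 (3.31) are filled in Lmo2-/- against WT HE1, Bmp2 (1.43) and Id3 (-2.30) in the step to HE1 in Lmo2-/-, and the 3 panels of Flk-1+ cells hold no filled point.

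The next comparisons followed the step from Flk-1+ cells to HE1 in each genotype. In WT, Bmp4, Bmp5 and Bmp7 were lower in both HE1 libraries than in any Flk-1+ library and Bmp2 was higher, yet none of the 10 members was called, against 6.98% of all tested genes. Bmp4 went from 48.8, 71.9 and 31.9 FPKM to 9.43 and 11.8, with no overlap between the stages. Its log2 fold change was -2.09 (SE 0.63) and its adjusted p in limma was 0.053; under the alternatives of scaling, filter, pseudocount, weights and samples fitted together, the adjusted p ran from 0.0076 to 0.075, and it was below 0.05 in 5 of them. It was also called when either Lmo2-/- HE1 library, outside this comparison, was left out of the shared fit. With a WT HE1 library left out Bmp4 was not called. Its log2 fold change was then -1.95 without replicate 0 and -2.24 without replicate 1. Bmp5 was at 6.04, 3.31 and 6.54 in WT Flk-1+ cells and at 1.16 and 0 in HE1, a log2 fold change of -2.06 (SE 0.51, limma, adjusted p = 0.024). Bmp7 (XLOC_021832; chromosome 2, 172868012 to 172940321, minus strand) was at 7.003, 7.42 and 4.55 and then at 1.01 and 0, a log2 fold change of -2.34 (SE 0.52, limma, adjusted p = 0.013). Both passed the adjusted p but neither reached a group mean of 10 FPKM, and without that criterion 9.74% of all tested genes passed. Without WT HE1 replicate 1, where both were at 0, the values were -1.50 for Bmp5 and -1.84 for Bmp7. Without WT HE1 replicate 0 they were -2.61 and -2.85. In a fit of these groups alone the adjusted p in limma was 0.073 for Bmp5 and 0.047 for Bmp7. Bmp2 was at 20.99, 15.4 and 17.9 in WT Flk-1+ cells and at 31.4 and 34.6 in HE1 (log2 fold change 0.84, SE 0.38, limma, adjusted p = 0.20), again with no overlap, as in 44.9% of all tested genes.

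Bmp4 made up a smaller share of the summed FPKM of the 4 member ligands in WT HE1. Bmp6 is not in this sum, and was at 2.996, 1.46 and 1.55 FPKM in WT Flk-1+ cells and at 38.8 and 26.9 in WT HE1. The 4 ligands summed to 82.9, 98.0 and 60.9 FPKM in Flk-1+ cells and to 43.0 and 46.3 in HE1. The share of Bmp4 in this sum was 58.9%, 73.3% and 52.4% in Flk-1+ cells and 21.9% and 25.4% in HE1. The exact permutation test for Bmp4 and for each of the other 3 ligands gave p = 0.2, its smallest value with 3 libraries on one side and 2 on the other.

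The response genes of WT cells mostly overlapped between the stages. The 3 Id genes summed to 17.2, 19.0 and 15.4 FPKM in Flk-1+ cells and to 14.4 and 19.0 in HE1. Id1 was at 8.55, 7.601 and 8.61 and then at 1.32 and 8.16, and Id3 at 7.67, 10.4 and 6.59 and then at 6.83 and 8.67. Id2 was the exception, at 1.00, 0.975 and 0.173 in Flk-1+ cells and at 6.25 and 2.18 in HE1 (log2 fold change 1.53, SE 0.86, limma, adjusted p = 0.30). Smad6 and Smad7 together summed to 66.7, 48.3 and 37.9 FPKM and then to 56.7 and 52.3, and the log2 fold changes were 0.41 (SE 0.62) for Smad6 and -0.02 (SE 0.52) for Smad7. No inhibitor and no Id gene passed the test, which does not show that the stages were alike.

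In Lmo2-/- cells Bmp4 overlapped between the stages. It was at 39.8, 51.6 and 77.8 FPKM in Flk-1+ cells and at 32.9 and 235 in HE1 (log2 fold change 0.69, SE 0.63, limma, adjusted p = 0.44). It was called as higher without Lmo2-/- HE1 replicate 0 (2.09, adjusted p = 0.0068), and without replicate 1 its value was -0.71. The members called were 2 of 10, Bmp2 as higher and Id3 as lower, where 19.6% of all tested genes were called, 17.2% as higher and 2.38% as lower. Bmp2 (XLOC_019678; chromosome 2, 133552159 to 133562885, plus strand) rose from 13.6, 8.64 and 12.5 FPKM to 48.7 and 21.6, a log2 fold change of 1.43 (SE 0.38, limma, adjusted p = 0.016). Without Lmo2-/- HE1 replicate 1 it was 2.003 (adjusted p = 0.0062), and without replicate 0 it was 0.87 (adjusted p = 0.094). The call also ended without Lmo2-/- Flk-1+ replicate 1 (1.25, adjusted p = 0.052). All tested genes together were shifted in this step, with a median of 0.30 on the log2 scale, and after rescaling each library to a common median Bmp2 differed by 0.94 (adjusted p = 0.13). Its call was lost too with quantile normalization (0.52, adjusted p = 0.49), in a fit of these groups alone and with array weights (adjusted p = 0.11 for both). Id3 (XLOC_025852, chromosome 4, 136143497 to 136145755, plus strand) has 2 SMAD boxes in the window before its RefSeq start. It fell from 6.25, 19.4 and 7.68 to 3.84 and 0, a log2 fold change of -2.30 (SE 0.74, limma, adjusted p = 0.036). This call rested on Lmo2-/- HE1 replicate 1, where Id3 is listed at 0: without it the value was -1.17 (adjusted p = 0.34). It was lost as well without Lmo2-/- Flk-1+ replicate 1 (-1.85, adjusted p = 0.12) or replicate 2 (-2.47, adjusted p = 0.064) and without WT Flk-1+ replicate 2 (adjusted p = 0.0502), with no filter (adjusted p = 0.055), in a fit of these groups alone (adjusted p = 0.15) and with array weights (adjusted p = 0.20). Bmp7 was at 8.55, 4.64 and 11.1 and then at 1.07 and 0, a log2 fold change of -2.59 (SE 0.52, limma, adjusted p = 0.0036), and was not called because neither group mean was above 10 FPKM; without that criterion 25.5% of all tested genes passed. Libraries of the stages did not overlap in 4 members, against 47% of all tested genes. Bmp5 was at 24.4, 14.4 and 12.9 and then at 9.04 and 20.3, with overlap.

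Whether the step differed between WT and Lmo2-/- was tested as the interaction of genotype and stage. No member was called, against 0.348% of all tested genes. The interaction was 2.79 on the log2 scale for Bmp4 (SE 0.89, limma, adjusted p = 0.22), 1.79 for Bmp5 (SE 0.73, limma, adjusted p = 0.33), 1.76 for Id1 (SE 0.79, limma, adjusted p = 0.39) and -2.24 for Id3 (SE 1.05, limma, adjusted p = 0.41). Without Lmo2-/- HE1 replicate 0 the interaction was 4.19 for Bmp4 and -3.38 for Id3. Without Lmo2-/- HE1 replicate 1 it was 1.39 for Bmp4 and -1.10 for Id3. With all libraries the step is not shown to differ between the genotypes for Bmp4 or any other member.

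**Figure D3:**
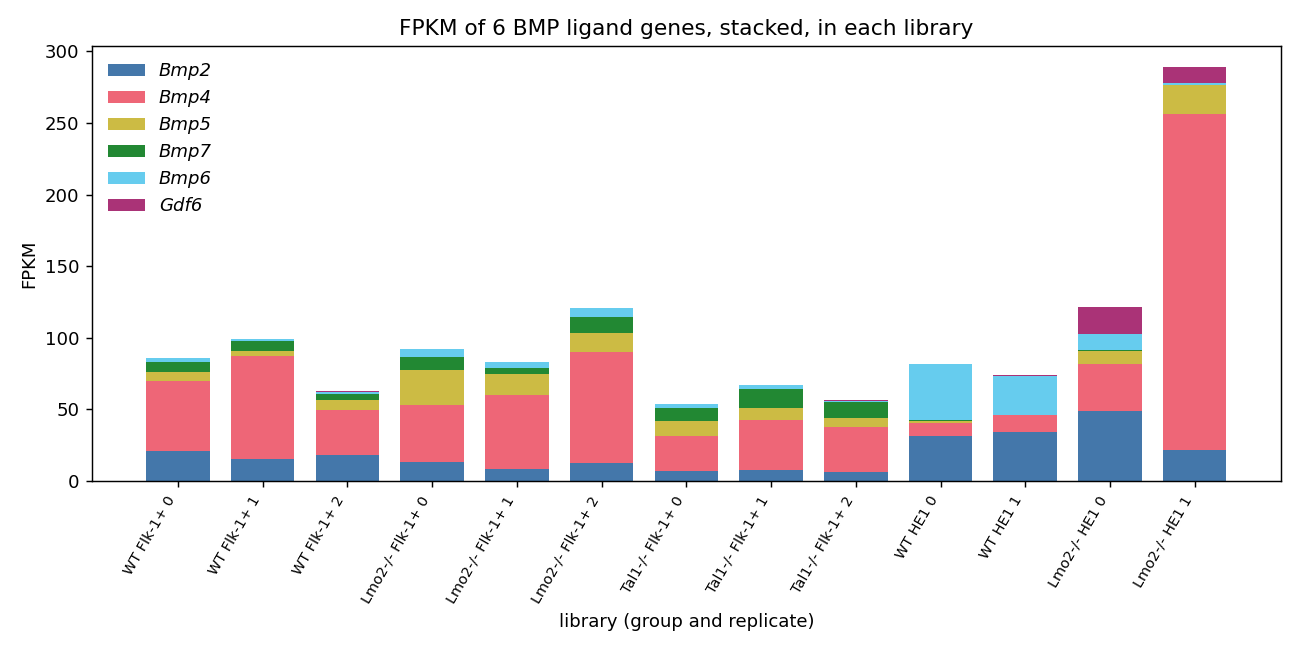
FPKM (y axis) of 6 BMP ligand genes, stacked, in each of the 13 libraries (x axis), with the members Bmp2, Bmp4, Bmp5 and Bmp7 below Bmp6 and Gdf6. Bmp4 takes the largest part of every Flk-1+ bar, Bmp2 and Bmp6 take most of the WT HE1 bars, and Gdf6 is visible in the Lmo2-/- HE1 bars.

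In Flk-1+ cells none of the 10 members was called in Lmo2-/- or in Tal1-/- against WT. None of the 13802 tested genes was called for either genotype against WT (0%), while 2.22% for Lmo2-/- and 6.11% for Tal1-/- had an unadjusted p below 0.05. Of the members, 1 had such a p in Lmo2-/- and 3 in Tal1-/-. Both comparisons use the same WT libraries. Lmo2 in Lmo2-/- and Tal1 in Tal1-/- were among the tested genes not called, though their libraries did not overlap with WT. The study itself reported genes that differed between WT and Lmo2-/- at this stage, by Cuffdiff. The lack of calls here does not show that the members were unchanged.

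Bmp5 had the smallest p of the members in Lmo2-/- Flk-1+ cells. It was at 6.04, 3.31 and 6.54 FPKM in WT, at 24.4, 14.4 and 12.9 in Lmo2-/- and at 10.5, 8.38 and 6.04 in Tal1-/-. Every Lmo2-/- library was above every WT and every Tal1-/- library. The log2 fold change against WT was 1.52 in Lmo2-/- (SE 0.46, unadjusted p = 0.0056, adjusted p = 1, limma; exact permutation test p = 0.10, the smallest for 3 against 3 libraries) and 0.58 in Tal1-/- (SE 0.46). Higher values in Lmo2-/- than in WT were thus seen for Bmp5 at both stages, and the difference passed the test in HE1 and not in Flk-1+ cells. Mesenchyme or feeder fibroblast markers summed to 6.50 to 14.3 FPKM in WT Flk-1+, 20.8 to 28.8 in Lmo2-/- and 22.1 to 35.2 in Tal1-/-. Col1a1 made up most of each sum and not the list as a whole. It was at 5.80, 12.8 and 4.54 in WT, at 19.0, 15.9 and 26.9 in Lmo2-/- and at 30.3, 22.9 and 16.2 in Tal1-/-. Between Lmo2-/- and WT, Col1a2 and Thy1 overlapped, Postn was at 0 in both and Col3a1 at most 0.440. Cardiac markers summed to 14.02 to 17.2, 18.5 to 30.1 and 8.29 to 18.4 in WT, Lmo2-/- and Tal1-/-. The part of these markers in the Bmp5 values was not tested.

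Bmp2 had the smallest p of the members in Tal1-/- Flk-1+ cells. It was at 20.99, 15.4 and 17.9 FPKM in WT, at 13.6, 8.64 and 12.5 in Lmo2-/- and at 7.10, 7.46 and 6.62 in Tal1-/-. The 3 genotypes did not overlap, and libraries did not overlap in 8.21% of all tested genes between Lmo2-/- and WT and in 12.6% between Tal1-/- and WT. The log2 fold change against WT was -0.61 in Lmo2-/- (SE 0.34) and -1.23 in Tal1-/- (SE 0.34, unadjusted p = 0.0032, adjusted p = 0.44, limma). Under the alternatives the adjusted p in Tal1-/- ran from 0.12 to 0.78. Bmp4 was at 24.5, 35.0 and 31.3 in Tal1-/- Flk-1+ cells and overlapped with WT. Bmp7 was at 7.003, 7.42 and 4.55 in WT, at 8.55, 4.64 and 11.1 in Lmo2-/- and at 9.12, 13.6 and 11.2 in Tal1-/-, where every library was above every WT library (log2 fold change 0.75, SE 0.47, limma, adjusted p = 0.91).

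Among the response genes Id3 and Bambi were the furthest from WT in Tal1-/- Flk-1+ cells, in opposite directions and without passing the test. Id3 was at 7.67, 10.4 and 6.59 FPKM in WT, at 6.25, 19.4 and 7.68 in Lmo2-/- and at 4.74, 2.60 and 0.295 in Tal1-/-. All Tal1-/- libraries were below all WT and all Lmo2-/- libraries. The log2 fold change against WT was -1.602 (SE 0.66, unadjusted p = 0.031, adjusted p = 0.76, limma). Bambi (XLOC_016501; chromosome 18, 3507923 to 3516404, plus strand), a pseudoreceptor that lacks the kinase domain, was at 5.88, 1.81 and 3.56 in WT and at 5.35, 12.6 and 7.33 in Tal1-/-, a log2 fold change of 1.01 (SE 0.46, unadjusted p = 0.048, adjusted p = 0.81, limma). Id1 (XLOC_019826; chromosome 2, 152736251 to 152737410, plus strand) had group means of 8.25, 8.63 and 8.23 FPKM in WT, Lmo2-/- and Tal1-/-. Id2 (XLOC_008522; chromosome 12, 25093799 to 25097140, minus strand) was at most 1.00 in the WT libraries, from 1.15 to 4.94 in Lmo2-/- and from 0.208 to 4.71 in Tal1-/-.

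The inhibitory Smads overlapped between the genotypes. Smad6 (XLOC_040572; chromosome 9, 63953076 to 64022059, minus strand) was at 28.1, 10.03 and 13.7 FPKM in WT, at 14.8, 16.9 and 16.3 in Lmo2-/- and at 15.5, 3.34 and 10.8 in Tal1-/-. Smad7 (XLOC_016885; chromosome 18, 75367529 to 75395935, plus strand) was at 38.6, 38.2 and 24.2, at 29.0, 47.8 and 44.8 and at 38.2, 16.9 and 13.8. The log2 fold changes in Tal1-/- against WT were -0.83 (SE 0.55) for Smad6 and -0.64 (SE 0.47) for Smad7.

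Setting Tal1-/- directly against Lmo2-/- Flk-1+ cells called no member and 2 of all tested genes (0.0145%); at an unadjusted p below 0.05 there were 1 member, Id3, and 5.96% of all genes. The 4 members whose libraries did not overlap, Bmp2, Bmp4, Bmp5 and Id3, were all lower in Tal1-/-. Over all 13802 tested genes 919 (6.66%) were lower without overlap and 910 were higher without overlap. The log2 fold changes of these 4 members were -0.62 (SE 0.34), -0.84 (SE 0.56), -0.94 (SE 0.46) and -1.86 (SE 0.66), with adjusted p from 0.72 to 0.92 in limma. The median of the 10 members was -0.73, against -0.0044 for all tested genes.

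The other genes of the pathway were taken in 4 lists, with 33 of 47 genes tested: 3 of 11 other ligands, 11 of 12 receptors and signal transducers, 9 of 14 extracellular antagonists and modulators, and 10 of 10 other response genes and intracellular regulators. None was called in the 3 comparisons of Flk-1+ cells. Neither did any list gene pass in these comparisons when Lmo2-/- HE1 replicate 1 was left out of the fit.

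Some of the receptors rose with the step to HE1. In WT 3 of the 11 tested were called, all higher, beside 6.98% of all tested genes, and the median log2 fold change of the list was 0.81 against 0.11 for all genes. They were Eng, which encodes the co-receptor endoglin (mean 6.01 to 80.5 FPKM, log2 fold change 3.61, SE 0.48), Acvrl1, the endothelial type I receptor ALK1 (2.17 to 21.4, log2 fold change 2.84, SE 0.49), and Bmpr2, the type II receptor (17.9 to 65.5, log2 fold change 1.87, SE 0.34), with adjusted p from 4.6e-04 to 0.0039 in limma. In Lmo2-/- 7 of 11 were called, 6 higher and 1 lower, beside 19.6% of all genes. Eng, Acvrl1 and Bmpr2 were again called, joined by Bmpr1a (log2 fold change 1.65), Acvr1 (2.16) and Smad5 (1.94), and Smad1, a transducer of BMP signals, fell (log2 fold change -1.14, SE 0.37, limma, adjusted p = 0.038); these 4 genes were named after their values were seen. Without Lmo2-/- HE1 replicate 1, 5 were called higher and none lower. Eng and Acvrl1 are also endothelial genes, and endothelial markers summed to at most 9.20 FPKM in all Flk-1+ libraries and to at least 516 in HE1. Between Lmo2-/- and WT HE1 no receptor or transducer was called.

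Of the other ligands Bmp6, Gdf2 and Gdf6 were tested, and Bmp6 and Gdf6 passed. Bmp6, which acts in endothelium and in the control of iron, rose in WT from 2.996, 1.46 and 1.55 FPKM in Flk-1+ cells to 38.8 and 26.9 in HE1 (log2 fold change 3.51, SE 0.64, limma, adjusted p = 0.0037). In Lmo2-/- HE1 it was at 10.8 and 1.13 and lower than in WT HE1 (log2 fold change -2.73, SE 0.70, limma, adjusted p = 0.043). That call was lost without Lmo2-/- HE1 replicate 1 (log2 fold change -1.50, adjusted p = 0.26), without WT HE1 replicate 0 (adjusted p = 0.22) or replicate 1 (adjusted p = 0.12), and with each of the 9 Flk-1+ libraries left out in turn (adjusted p from 0.051 to 0.067). It was also lost with a pseudocount of 0.1 (adjusted p = 0.079), no filter (0.063), quantile normalization (0.078), array weights (0.17) and a fit of the HE1 libraries alone (0.52). The rise of Bmp6 in WT was lost without WT HE1 replicate 0 (adjusted p = 0.062). Gdf6, a growth and differentiation factor that signals through BMP receptors, was at 0.316 and 1.18 in WT HE1 and at 19.0 and 11.6 in Lmo2-/- HE1, and at most 0.289 in all Flk-1+ libraries. Its log2 fold change between the genotypes in HE1 was 3.23 (SE 0.43, limma, adjusted p = 0.0022), and without Lmo2-/- HE1 replicate 1 it was 3.56 (adjusted p = 0.0037). The call was lost in a fit of the HE1 libraries alone (adjusted p = 0.39). Gdf2, which encodes BMP9 and was named after its values were seen, was at 0 in WT HE1 and at 1.81 and 4.81 in Lmo2-/- HE1, below the 10 FPKM needed for a call.

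In the step to HE1 in WT, 1 of 9 tested antagonists and modulators was called, beside 6.98% of all tested genes. It was Fstl1, which encodes follistatin-like 1 (20.3 to 105 FPKM, log2 fold change 2.30, SE 0.35, limma, adjusted p = 0.0010). In Lmo2-/- 2 of 9 were called, both higher, beside 19.6% of all tested genes: Bmp1, a protease that cleaves the antagonist chordin and is no BMP ligand despite its name (log2 fold change 3.08, SE 0.53), and Fstl1 (1.80, SE 0.35). With quantile normalization the value of Fstl1 in Lmo2-/- was 0.70 and the call was lost (adjusted p = 0.15). Between Lmo2-/- and WT HE1 none of these 9 was called.

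Of the 10 other response genes and regulators, 3 were called in WT and 4 in Lmo2-/- in the step to HE1, beside 6.98% and 19.6% of all tested genes. Msx2, a homeobox gene induced by BMPs, fell in both: in WT from 18.7, 15.2 and 12.4 FPKM to 0.770 and 1.73 (log2 fold change -2.88, SE 0.44, limma, adjusted p = 0.0012) and in Lmo2-/- from 20.2, 55.4 and 23.6 to 7.04 and 7.76 (-1.88, SE 0.44, limma, adjusted p = 0.0084). The call in Lmo2-/- was lost in a fit of these groups alone (adjusted p = 0.079) and with array weights (adjusted p = 0.12). Smurf2, named after its values were seen, rose in Lmo2-/- (log2 fold change 1.42, SE 0.44, limma, adjusted p = 0.032). Smurf1, a ubiquitin ligase for SMAD1 and SMAD5, and Ski, a corepressor of SMADs, rose in both, with log2 fold changes of 1.52 and 1.26 in WT and 1.85 and 1.75 in Lmo2-/-. In WT both calls were lost when either WT HE1 library was left out (adjusted p from 0.094 to 0.32) and without WT Flk-1+ replicate 1 or 2 (0.11 to 0.16), and leaving out most of the Lmo2-/- and Tal1-/- Flk-1+ libraries also moved them past the threshold (0.052 to 0.068). They were lost in WT too with quantile normalization (adjusted p = 0.14 for Smurf1 and 0.22 for Ski), rescaling (0.097 and 0.12), a fit of these groups alone (0.071 and 0.094) and the replicate block (both 0.11), and Smurf1 with no filter (0.0501). In Lmo2-/- both were lost with quantile normalization (adjusted p = 0.19 and 0.24) and array weights (0.063 and 0.062), and Smurf1 in a fit of these groups alone (0.075). Msx1, the relative of Msx2, was at 0 and 0.687 FPKM in WT HE1 and at 3.64 and 27.1 in Lmo2-/- HE1 (log2 fold change 3.13, SE 0.67, limma, adjusted p = 0.019). This call too was lost without Lmo2-/- HE1 replicate 1 (log2 fold change 1.84, adjusted p = 0.10), and without WT HE1 replicate 0 (adjusted p = 0.14) or replicate 1 (adjusted p = 0.057), with array weights (adjusted p = 0.090) and in a fit of the HE1 libraries alone (adjusted p = 0.52). Without that library Gdf6 alone, of the 10 members and the 33 tested list genes, was called between Lmo2-/- and WT HE1, beside 1.08% of all tested genes.

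**Figure D4:**
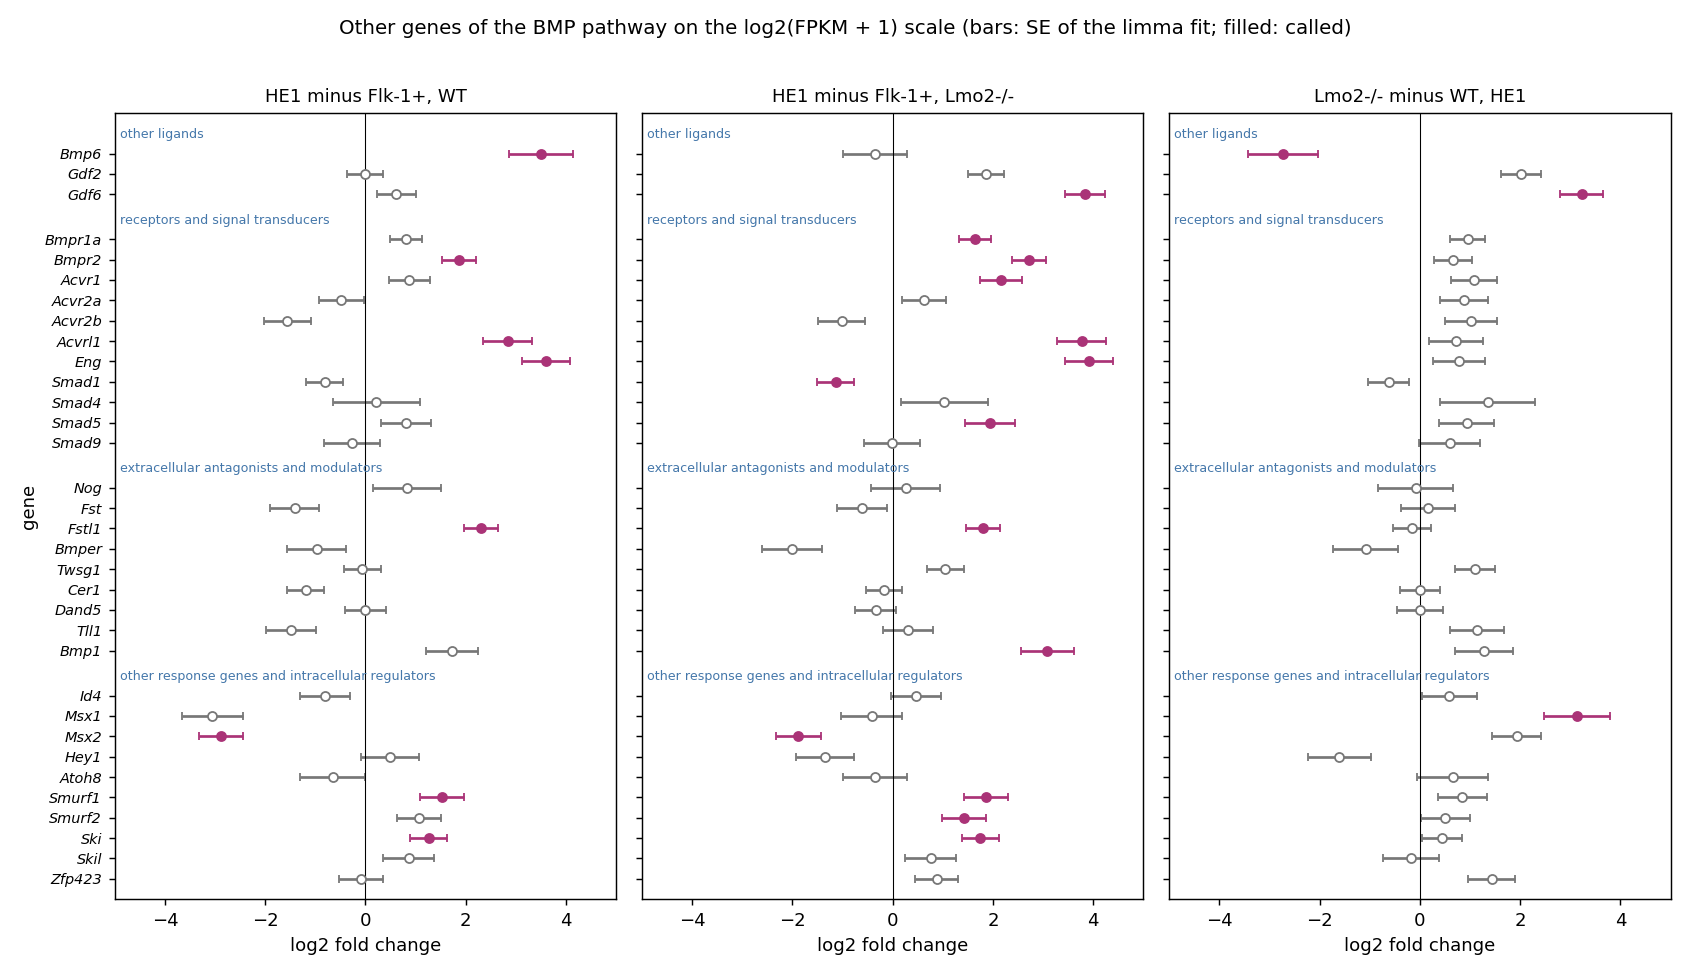
Log2 fold change (x axis, log2(FPKM + 1) scale) of the 33 tested genes of the 4 lists (y axis) in the step to HE1 in WT and in Lmo2-/- and between the genotypes in HE1; bars are standard errors of the limma fit and filled points are called genes. Eng (3.61 and 3.91) and Acvrl1 (2.84 and 3.77) are filled in both steps, and Gdf6 (3.23) and Bmp6 (-2.73) on opposite sides between the genotypes.

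The genes most like each member were sought by Pearson's r of log2(FPKM + 1) over the 13 libraries, among the other tested genes whose mean exceeded 10 FPKM in any group. The libraries share 5 groups and 1 of them stands apart, so r describes these libraries and carries no test. For Bmp4 they were Slc9a3r1 (r = 0.936), Tead2 (0.930) and Cecr2 (0.920), and for Bmp5 Gys1 (0.914), Pard6b (0.899) and Ptpn13 (0.881). For Bmp2 they were Ehd4 (0.939), Frmd4b (0.939) and Fam13b (0.935), and for Bmp7 Hs3st3b1 (0.958), Vrtn (0.951) and Cdh4 (0.941). Id1 was closest to Lnp (0.872), Pars2 (0.865) and Spry2 (0.864), Id2 to Mtch2 (0.818), Ercc1 (0.795) and Tsc22d2 (0.788), and Id3 to Rras (0.972), Gm13502 (0.900) and Gm14270 (0.880). Smad6 was closest to Ppm1d (0.920), Prkar1a (0.894) and Zcchc3 (0.887), Smad7 to Cc2d1b (0.756), Id3 (0.737) and Prcc (0.734), and Bambi to Dkk1 (0.832), BC023829 (0.825) and Zfp266 (0.807). Id3 was the only member among the closest genes of another member; r between Smad7 and Id3 was 0.877 over the 9 Flk-1+ libraries. Among the ligands r was 0.687 between Bmp4 and Bmp5 and -0.785 between Bmp2 and Bmp7 over the 13 libraries, and -0.090 and -0.490 over the 9 Flk-1+ libraries. Between the 3 Id genes r ran from -0.390 to 0.272.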

How the data were processed

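RNAseq was analysed from 13 libraries of 5 groups. Per the labels and the study's methods, reads were aligned to mm10 (GRCm38) with TopHat2 (version 2.0.9), transcripts were assembled with Cufflinks (2.0.0) and merged, and the authors deposited 1 FPKM value per gene and library, scaled between libraries with Cuffnorm, beside condition FPKM values from Cuffdiff (2.0.1). No fragment counts were used; the methods give a minimum number of reads per library, but the depth of each library, and so its counting error, is not known here. Every column of per-library values was matched to a sample by its name. A table of the authors' own comparisons (fold changes, p and q values) was not used, and ChIP-seq and DNase data were not analysed here.

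Tested genes had a locus longer than 200 bp and reached 1 FPKM in 2 or more libraries. They were compared on log2(FPKM + 1), a scale that understates the change of low genes, with limma (3.58.1, trended variance, R 4.3.3) in 1 fit of all libraries, with Benjamini-Hochberg adjustment over 13802 genes. The threshold for a call was an adjusted p of 0.05, together with a group mean that exceeded 10 FPKM on either side. Single members were also tested with the two-sided exact permutation test, whose smallest p is 0.1 for 3 against 3, 0.2 for 3 against 2 and 0.333 for 2 against 2 libraries. The pipeline was tested on simulated data. The 10 members and the 4 lists of other pathway genes were chosen with earlier results of these data known; 1 gene of the list of antagonists is not reported here. All members were named, and from each list up to 3 called genes per comparison with the largest fold change and no overlap between libraries, except where stated. Motifs were matched with Python (3.11.15). Alternatives were another pseudocount, 2 other filters, 2 other scalings, fits of the compared groups alone, a block for the replicate number, array weights, calls without the FPKM criterion, and each library left out in turn.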

Additional observations from a re-analysis of the deposited data

Results flagged for a closer look

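Gdf6 was the only gene among the 10 members and the 33 tested list genes whose difference between Lmo2-/- and WT itself differed between HE1 and Flk-1+ cells by the interaction test. The interaction was 3.22 on the log2 scale (SE 0.55, limma, adjusted p = 0.026). Gdf6 was at 19.0 and 11.6 FPKM in Lmo2-/- HE1, at 0.316 and 1.18 in WT HE1, and at most 0.289 in Flk-1+ libraries. Without Lmo2-/- HE1 replicate 1 the interaction was 3.55 (adjusted p = 0.023) and the call held. Without WT HE1 replicate 0 it was 2.85 (adjusted p = 0.13), with each WT or Lmo2-/- Flk-1+ library left out in turn 3.10 to 3.29 (adjusted p from 0.058 to 0.085), and each of the latter ended the call. It also ended with a pseudocount of 0.1 (4.13, adjusted p = 0.27), the filter at 10 FPKM (adjusted p = 0.13), quantile normalization (2.46, adjusted p = 0.098), rescaling to a common median (2.93, adjusted p = 0.051), a fit of these groups alone (adjusted p = 0.070), array weights (3.29, adjusted p = 0.097) and the replicate block (adjusted p = 0.076).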

How the results depend on the processing

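Of 1463 alternative values of the members, 1382 kept direction and side of the threshold, 22 lost the threshold, 12 gained it and 47 changed sign; where no cause is given, the cause was not tested. No member was called in the 3 comparisons of Flk-1+ cells under any alternative. Between Lmo2-/- and WT HE1 the 2 calls became 0 in a fit of these groups alone and with array weights. Their number also moved when an HE1 library was left out. The fit of these groups alone has fewer samples and gave larger SEs, 1.14 against 0.69 for Bmp4 and 0.87 against 0.56 for Bmp5. The main fit takes the spread of a gene from Flk-1+ and HE1 libraries together. In the step to HE1 in WT the 0 calls became 1 with the filter at 10 FPKM, quantile normalization, rescaling to a common median, a fit of these groups alone or array weights, 2 without the FPKM criterion, and 0 to 1 with a library left out. In Lmo2-/- the 2 calls became 1 with no filter, quantile normalization or rescaling, 0 in a fit of these groups alone or with array weights, 3 without the FPKM criterion, and 0 to 2 with a library left out. The interaction gave 0 to 2 with a library left out. A lone library left in a group of 2 is assumed to vary like the other groups.

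Among the log2 fold changes that changed sign, none passed the test in the main analysis. With quantile normalization these were Id2 between Tal1-/- and Lmo2-/- Flk-1+ (0.0886), Smad6 in the step to HE1 in WT (-0.0498), and Bmp4 (-0.35), Id1 (-0.0348) and Bambi (-0.0116) in the step in Lmo2-/-. With rescaling they were Smad6 between Lmo2-/- and WT Flk-1+ (-0.0051) and Bambi in the step in Lmo2-/- (-0.21), and with array weights Id2 between Tal1-/- and Lmo2-/- Flk-1+ (0.13), and Id3 (0.0245) and Smad7 (0.16) in the step in WT. With a library left out, Lmo2-/- against WT Flk-1+ ran from -0.12 to 0.45 for Bmp4, -0.14 to 0.16 for Id1, -0.19 to 0.55 for Id3, -0.28 to 0.42 for Smad6 and -0.0613 to 0.58 for Bambi. Id1 ran from -0.29 to 0.24 in Tal1-/- against WT and from -0.32 to 0.21 against Lmo2-/- Flk-1+, where Id2 ran from -0.55 to 0.57. Lmo2-/- against WT HE1 ran from -0.59 to 0.55 for Bmp2, -0.50 to 0.55 for Bmp7, -2.26 to 0.60 for Id2, -0.17 to 1.59 for Smad6 and -0.89 to 0.80 for Smad7. The step in WT ran from -0.21 to 0.10 for Id3 and -0.25 to 0.21 for Smad7. The step in Lmo2-/- ran from -0.71 to 2.09 for Bmp4, -0.81 to 0.28 for Bmp5, -1.81 to 1.05 for Id2, -1.16 to 0.52 for Smad7 and -0.25 to 0.65 for Bambi. The interaction ran from -0.77 to 0.28 for Bmp7, -0.19 to 1.57 for Smad6 and -1.14 to 0.54 for Smad7.

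The replicate block changed no count of called members, which stayed at 2 between the genotypes in HE1, 0 and 2 in the steps in WT and Lmo2-/-, and 0 in the interaction. Among the other named genes it ended the calls of Smurf1 and Ski in the step in WT and of Gdf6 in the interaction. Replicate numbers were not taken to pair the samples. The deviations of libraries with equal numbers correlated at -0.177, -0.184 and -0.015 between WT and Lmo2-/- Flk-1+, and at -0.058, 0.012 and 0.023 between Lmo2-/- and Tal1-/- Flk-1+. Between WT and Tal1-/- Flk-1+ they correlated at 0.169, 0.074 and 0.107. Every library there correlated best with its own number, which is a hint from the data and not from the design. The block called 0 genes in that comparison. Higher values were found for unequal numbers between WT and Lmo2-/- Flk-1+. WT 0 with Lmo2-/- 1 had 0.343, WT 1 with Lmo2-/- 2 had 0.309 and WT 2 with Lmo2-/- 0 had 0.296. A block for the replicate number does not take up such a pattern, and its cause was not tested.

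Counts of all genes called moved more. Between Lmo2-/- and WT HE1 the 415 genes became 212 with quantile normalization, 51 with array weights, 0 in a fit of these groups alone and 626 without the FPKM criterion, and ran from 99 to 2182 with a library left out. In the step in WT the 964 genes became 629 in a fit of these groups alone and 1682 with array weights (336 to 1234 with a library left out), and in Lmo2-/- the 2707 genes became 1248, 1789, 1109 and 976 with quantile normalization, rescaling, a fit of these groups alone and array weights (1657 to 3821). The 48 interaction calls became 5 to 26 with the filter at 10 FPKM, quantile normalization, a fit of these groups alone, array weights or the replicate block, and 8 to 1170 with a library left out. In Flk-1+ cells at most 15 genes were called under any alternative.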

Other observations

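The condition FPKM that the authors deposited beside the library values lay outside the range of the libraries in 17 of 50 pairs of member and group. For Bmp7 this held in all 3 Flk-1+ groups, with a condition value of 2.38 FPKM in WT against libraries from 4.55 to 7.42. For Bmp4 in Lmo2-/- HE1 the condition value was 48.4 FPKM, within the libraries at 32.9 and 235 and below their mean of 134.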
